A study of Danio rerio with 24 samples.

Results

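The hatching gland genes described here are he1.1, he1.2 and he1.3, which encode hatching enzymes, ctslb, which encodes a cathepsin L, and klf17, which encodes a Kruppel-like transcription factor. They were taken as every gene identifier that carries 1 of these 5 symbols in the deposited count table, which gave 8 identifiers of 23219. The symbols he1.1, he1.2, he1.3 and klf17 stood for 1 identifier each and ctslb for 4. All 8 had enough counts to be tested, as had 22340 genes in all. RNA was read from whole zebrafish embryos that were exposed at 24 h post fertilisation (hpf) and collected 5 h later (29 hpf) or 24 h later (48 hpf), which gave 8 groups of 3 libraries. At each time the groups were maternal eevs mutants (Meevs) given 450 J of ultraviolet B (UVB), Meevs given a mock exposure, wild type (WT) given 450 J of UVB, and WT given a mock exposure. The gene eevs encodes the first enzyme in the synthesis of gadusol, a UV-absorbing compound of fish. All embryos were kept in the dark before and after the exposure. The mutant is labelled by the genotype of the mother, and the lesion and the alleles of the embryos themselves are not stated. The dose is given in J with no area.

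The hatching gland is a transient tissue of the fish embryo. Its cells arise from the front of the axial mesendoderm, spread over the yolk beneath the head, fill with secretory granules and release enzymes that digest the inner layer of the chorion, the egg envelope. In zebrafish the he1 genes encode astacin family zinc metalloproteases that act as these enzymes, ctslb was long known as hatching gland gene 1, and klf17 is expressed in the precursors of the gland and in primitive blood.

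The 3 he1 genes lie side by side on the plus strand of chromosome 22 in the GRCz11 build. The gene annotation deposited with the counts places he1.1 (ENSDARG00000023656) at 14093306 to 14094746 and he1.2 (ENSDARG00000019122) at 14098028 to 14099399. It places he1.3 (ENSDARG00000022670) at 14102397 to 14103633, so that the cluster spans 10328 bases. All 3 sit inside the span of aox5, an aldehyde oxidase gene on the other strand, which had 987 to 1992 counts per library. Libraries were made with a directional kit. Use of strand in counting was not given in the sources used here, and reads of the he1 genes and aox5 may therefore not be fully separated. The ctslb identifiers lie on the minus strand of chromosome 12. ENSDARG00000039173 spans 16617138 to 16619757, ENSDARG00000074306 spans 16691584 to 16694092, ENSDARG00000087651 spans 16691586 to 16720434 and ENSDARG00000095072 spans 16895644 to 16898140. ENSDARG00000074306 and ENSDARG00000087651 overlap by 2507 bases on the same strand, and similar copies can divide reads between them, so the division of reads among the ctslb identifiers is uncertain. The reference table of gene names gives the symbol ctslb to ENSDARG00000074306 only. klf17 (ENSDARG00000038792) lies on the plus strand of chromosome 2, at 33326522 to 33328688.

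Total counts per library lay between 22395870 and 44691629. Nothing in the labels ties replicates to separate clutches, so the p-values rest on a spread between samples that may be technical. All WT libraries belong to 1 library series and all Meevs libraries to another, so genotype and series cannot be told apart. The first principal component held 59% of the variance and separated the times. On the leading components 4 libraries lay away from their own group (replicate 3 of Meevs UVB at 24 h, replicate 1 of WT UVB at 24 h, replicate 3 of Meevs mock at 5 h and replicate 3 of WT UVB at 5 h), and results that changed without them are given so. Levels are counts scaled to TMM-adjusted library sizes (CPM), given as mean ± SD (n = 3). Differences are log2 fold changes ± SE, and a gene was called when its Benjamini-Hochberg adjusted p over all tested genes was under 0.05. In whole embryos, fewer gland cells and less RNA per cell cannot be told apart.

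Transcripts of the members were lower at 48 hpf than at 29 hpf in both genotypes with and without UVB, though not every identifier was called. The members were chosen with earlier results of these data known. Their counts beside the share of all genes are therefore a description and no independent test. The 8 identifiers were all called lower at 48 hpf in Meevs UVB embryos, where 33.8% of all tested genes were called lower. In Meevs mock embryos 7 of 8 were called lower, against 31.5% of all genes. In WT UVB embryos 6 of 8 were called lower, against 34.4%, and in WT mock embryos 8 of 8, against 33.5%. The median log2 fold change of the members was -2.27 in Meevs UVB, -3.43 in Meevs mock, -2.29 in WT UVB and -3.65 in WT mock embryos, while the median of all genes lay between -0.04 and 0.01. The members not called were ctslb ENSDARG00000087651 in Meevs mock (-2.27 ± 1.02, edgeR adjusted p = 0.0564) and in WT UVB embryos (-0.65 ± 1.07, edgeR adjusted p = 0.6), and ctslb ENSDARG00000095072 in WT UVB embryos (-1.87 ± 0.91, edgeR adjusted p = 0.0691).

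**Figure D1:**
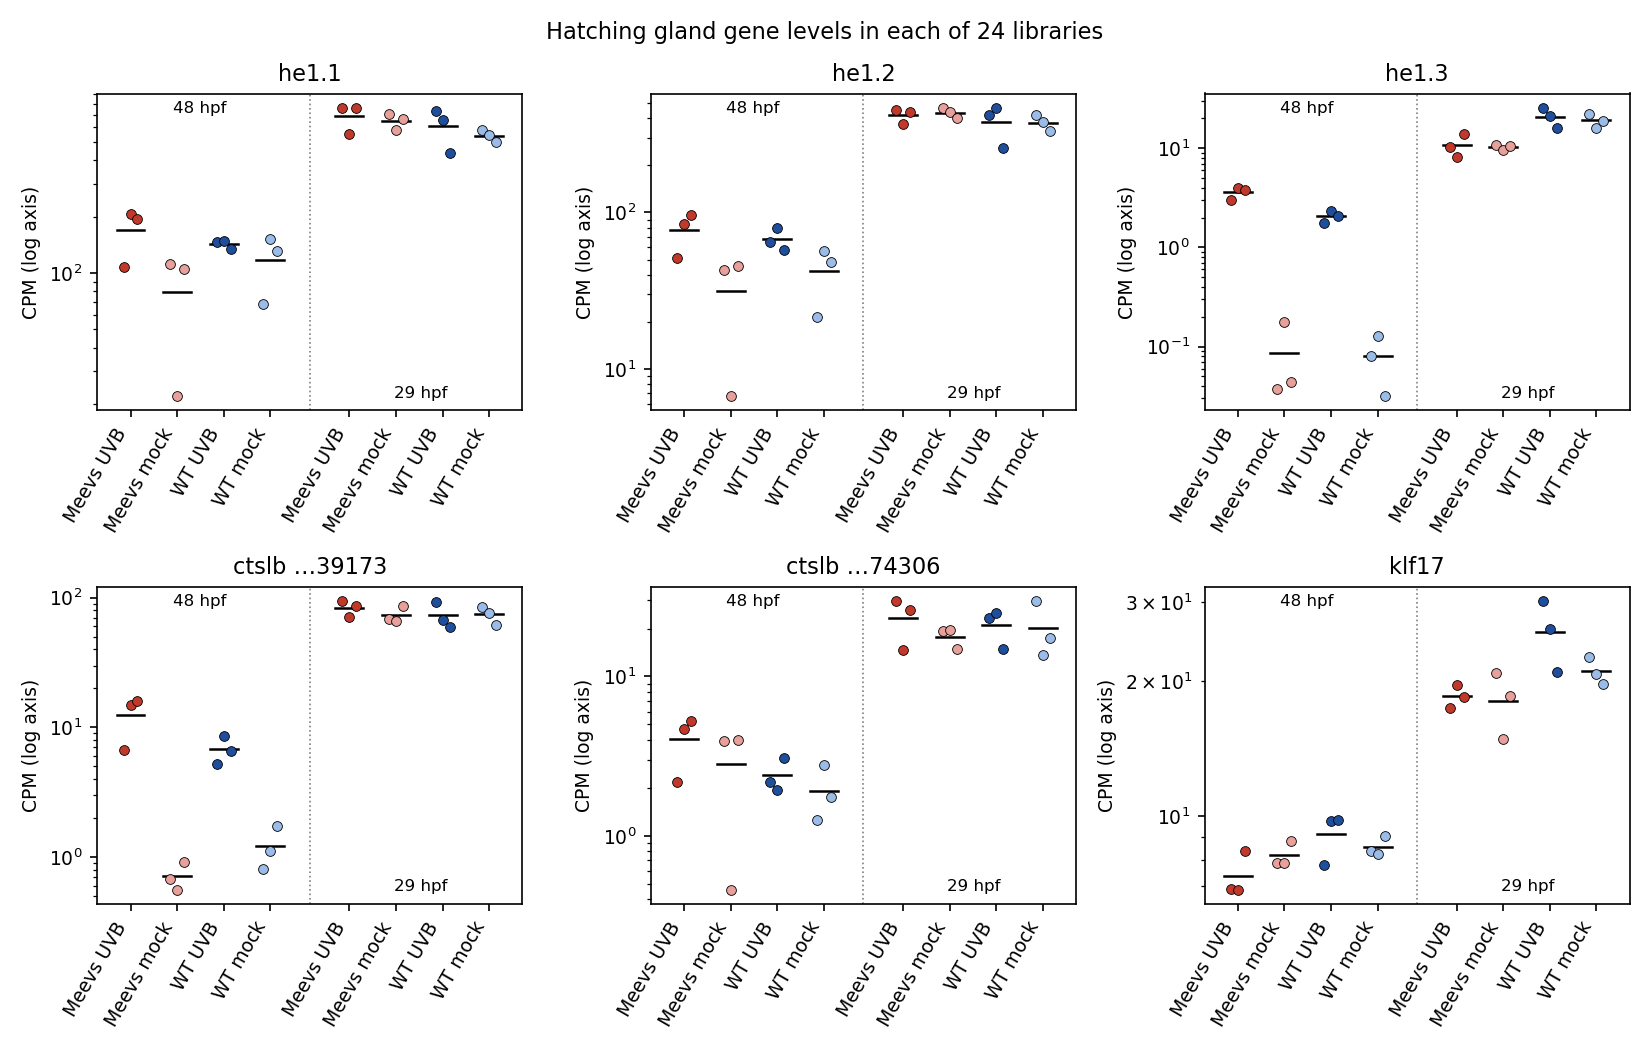
CPM on a log axis in each of 24 libraries for he1.1, he1.2, he1.3, ctslb ENSDARG00000039173, ctslb ENSDARG00000074306 and klf17, with 1 point per library and a line at the mean of each group; groups at 48 hpf stand left of the dotted line and groups at 29 hpf right of it. At 48 hpf, he1.3 lay between 2.98 and 3.958 CPM in Meevs UVB libraries against 0.03738 to 0.1789 CPM in Meevs mock libraries, while klf17 overlapped between UVB and mock libraries.

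klf17, the transcription factor, had the smallest fall of the 6 members with a mean of at least 1 CPM. In mock WT embryos it had 8.36, 8.26 and 9.06 CPM at 48 hpf, against 22.6, 20.8 and 19.7 CPM at 29 hpf. No library at 48 hpf reached any at 29 hpf, and 40.7% of the mean level was left. The log2 fold change was -1.32 ± 0.13 in Meevs UVB, -1.15 ± 0.13 in Meevs mock, -1.49 ± 0.12 in WT UVB and -1.30 ± 0.13 in WT mock embryos. The largest edgeR adjusted p of these was 2.23e-08.

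he1.1, the first of the hatching enzyme genes in the cluster, had 68.6, 152 and 132 CPM in mock WT embryos at 48 hpf, against 581, 547 and 501 CPM at 29 hpf. In mock Meevs embryos it had 111, 22.03 and 105 CPM at 48 hpf, against 705, 580 and 667 CPM at 29 hpf. The times did not overlap in either genotype, and 1 mock library at 48 hpf stood low in each: replicate 1 of WT held 48.3% and replicate 2 of Meevs 20.4% of the mean of the other replicates. The fall of he1.1 was -2.03 ± 0.35 in Meevs UVB, -3.05 ± 0.36 in Meevs mock, -2.09 ± 0.35 in WT UVB and -2.21 ± 0.35 in WT mock embryos. he1.2, its neighbour, had log2 fold changes of -2.44 ± 0.38 in Meevs UVB, -3.81 ± 0.41 in Meevs mock, -2.49 ± 0.38 in WT UVB and -3.16 ± 0.40 in WT mock embryos. For he1.2 the same libraries were low, replicate 1 of WT mock at 40.8% and replicate 2 of Meevs mock at 15.3% of the mean of the other replicates.

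he1.3 was nearly gone from mock embryos at 48 hpf. It had 3, 4 and 1 counts in the WT mock libraries at 48 hpf, against 697, 470 and 502 counts at 29 hpf, and 1, 7 and 1 counts in the Meevs mock libraries at 48 hpf, against 248, 208 and 210 counts at 29 hpf. The times were far apart, and the mean CPM left at 48 hpf was 0.843% in Meevs and 0.418% in WT mock embryos. The log2 fold change in WT mock embryos was -7.83 ± 0.33 (edgeR adjusted p = 1.04e-16), the second lowest of all 22340 genes. In Meevs mock embryos it was -6.61 ± 0.36 (edgeR adjusted p = 1.82e-14), and -7.85 without replicate 2 at 48 hpf, which held 7 of the 9 counts. With so few counts the SE, which was derived from the F statistic, was below the counting error of the summed counts. That error was 0.48 in Meevs and 0.51 in WT on the log2 scale, so the SE is too small here. After UVB the log2 fold change was -1.57 ± 0.20 in Meevs and -3.34 ± 0.20 in WT embryos, and 33.3% of the mean level was left in Meevs and 9.88% in WT.

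Of the cathepsin identifiers, ctslb ENSDARG00000039173 had the highest counts. It had 0.673, 0.562 and 0.912 CPM in mock Meevs embryos at 48 hpf, against 68.2, 65.8 and 85.9 CPM at 29 hpf. In mock WT embryos it had 0.806, 1.11 and 1.74 CPM at 48 hpf, against 84.9, 75.7 and 62.1 CPM at 29 hpf. The times did not overlap, and the log2 fold change was -6.72 ± 0.32 in Meevs and -5.95 ± 0.29 in WT mock embryos. After UVB it was -2.74 ± 0.22 in Meevs and -3.44 ± 0.23 in WT embryos. For ctslb ENSDARG00000074306 the log2 fold change was -2.51 ± 0.39 in Meevs UVB, -2.79 ± 0.42 in Meevs mock, -3.14 ± 0.40 in WT UVB and -3.42 ± 0.42 in WT mock embryos. Without replicate 2 of Meevs mock at 48 hpf, which had 18 counts against 106 and 92 in the other replicates, the Meevs mock value was -2.16.

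**Figure D2:**
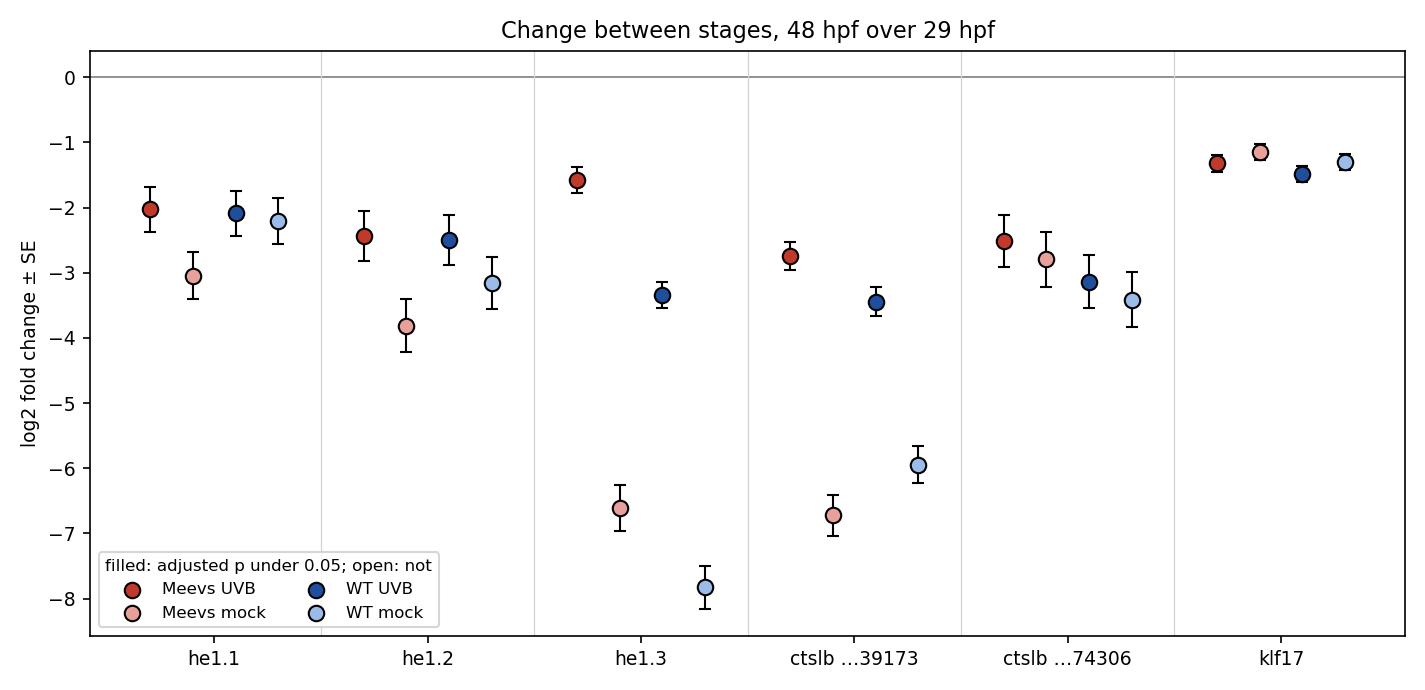
Log2 fold change ± SE of 48 hpf over 29 hpf for 6 members in Meevs UVB, Meevs mock, WT UVB and WT mock embryos, with filled points for an adjusted p under 0.05 from the edgeR fit of 24 libraries. For he1.3 in the mock arms the SE shown is below the counting error. All 24 points are filled and below 0, and he1.3 and ctslb ENSDARG00000039173 lie lowest in the mock arms.

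ctslb ENSDARG00000087651 and ENSDARG00000095072 had few counts, with means of 0.922 and 0.456 CPM over all libraries. Single libraries carried much of what was read. For ENSDARG00000087651, replicate 3 of WT mock at 5 h had 176 counts, against 14 and 22 in the other replicates. For ENSDARG00000095072, replicate 2 of Meevs mock at 5 h had 104 counts, against 11 and 8. The change of ENSDARG00000087651 in WT mock embryos was -5.12, and -3.03 without the library of 176 counts. Without replicate 1 of WT mock at 24 h, which held 6 of 7 counts, that change was -6.99. The change of ENSDARG00000095072 in Meevs mock embryos was -6.94, with an SE of 1.05 below the counting error of 1.45. It was -4.85 without the library of 104 counts, and -8.83 without replicate 1 or -6.28 without replicate 2 of Meevs mock at 24 h. The call of ENSDARG00000095072 in Meevs UVB embryos (-2.11 ± 0.87, edgeR adjusted p = 0.0343) was lost in 5 of the 6 fits that left out 1 library each, and kept without replicate 2 of Meevs UVB at 5 h.

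At 5 h after exposure he1.1, he1.2, he1.3, klf17 and both ctslb identifiers with higher counts were not called for UVB in either genotype. In Meevs embryos 1 of 8 identifiers was called lower, against 15.3% of all genes, and in WT embryos 1 of 8, against 6.06%. he1.1 had 762, 554 and 757 CPM in Meevs UVB embryos, against 705, 580 and 667 CPM in Meevs mock embryos. In WT it had 732, 656 and 437 CPM in UVB embryos, against 581, 547 and 501 CPM in mock embryos. UVB and mock libraries overlapped in both genotypes, and the 95% interval of the log2 fold change of he1.1 ran from -0.60 to 0.77 in Meevs and from -0.52 to 0.85 in WT. The interval for he1.3 ran from -0.31 to 0.42 in Meevs and from -0.20 to 0.46 in WT, and that for ctslb ENSDARG00000039173 from -0.20 to 0.59 in Meevs and from -0.41 to 0.38 in WT. klf17 averaged 25.7 ± 4.6 CPM in WT UVB embryos and 21.0 ± 1.5 CPM in WT mock embryos (0.28 ± 0.12, edgeR adjusted p = 0.116), and it was called higher without replicate 3 of WT UVB (0.41, edgeR adjusted p = 0.0154).

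The calls at 5 h were those of the low-count ctslb identifiers. ENSDARG00000095072 was lower in Meevs UVB embryos (-1.84 ± 0.57, edgeR adjusted p = 0.0132), with 19, 14 and 14 counts in UVB libraries, against 11, 104 and 8 in mock libraries. The groups overlapped, and without the mock library of 104 counts the value was 0.255 (edgeR adjusted p = 0.726). Without replicate 2 of Meevs UVB it was -1.61 (edgeR adjusted p = 0.0708). ENSDARG00000087651 was lower in WT UVB embryos (-2.56 ± 0.81, edgeR adjusted p = 0.0354), with 22, 10 and 12 counts in UVB libraries, against 14, 22 and 176 in mock libraries. These groups also overlapped, the value without the mock library of 176 counts was -0.47 (edgeR adjusted p = 0.797), and the call was also lost without any 1 of the 3 UVB libraries (edgeR adjusted p between 0.0713 and 0.0997).

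At 24 h after exposure, he1.3 and ctslb ENSDARG00000039173 were higher in UVB than in mock embryos of both genotypes. In Meevs embryos 4 of 8 identifiers were called higher, against 11.5% of all genes, and in WT embryos 2 of 8, against 1.74%. UVB libraries lay above all mock libraries for 4 of 8 identifiers in Meevs, against 19% of all genes, and for 3 of 8 in WT, against 10.6%. Those in Meevs included ctslb ENSDARG00000095072, which was not called and had only 3, 2 and 4 counts in UVB libraries against 1, 0 and 0. The median log2 fold change of the members was 1.21 in Meevs and 0.84 in WT embryos, beside 0 for all genes in both.

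he1.3 had 2.98, 3.96 and 3.82 CPM in Meevs UVB embryos, against 0.0374, 0.179 and 0.0435 CPM in Meevs mock embryos. In WT it had 1.78, 2.33 and 2.099 CPM in UVB embryos, against 0.0806, 0.127 and 0.0317 CPM in mock embryos. Every UVB library stood above every mock library. The log2 fold change was 5.10 ± 0.42 in Meevs (edgeR adjusted p = 6.66e-10) and 4.62 ± 0.45 in WT embryos (edgeR adjusted p = 1.59e-07), and the WT value was the 3rd highest of all tested genes. Mock libraries held few counts, and these SEs too were below the counting error of the summed counts (0.49 in Meevs and 0.52 in WT), so the counting interval is the wider measure of the size. Summed over 3 libraries, he1.3 had 272 counts in Meevs UVB against 9 in Meevs mock embryos, a ratio of 35.4 after library size (95% interval 18.4 to 78.3, counting error only), and 220 counts in WT UVB against 8 in WT mock embryos, a ratio of 25.8 (12.9 to 60.5). Without replicate 2 of Meevs mock the log2 fold change in Meevs was 6.34. At 48 hpf UVB embryos still had less he1.3 than any group at 29 hpf, whose means lay between 10.3 and 20.9 CPM.

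ctslb ENSDARG00000039173 had 6.70, 14.8 and 15.9 CPM in Meevs UVB embryos, against 0.673, 0.562 and 0.912 CPM in Meevs mock embryos. In WT it had 5.20, 8.52 and 6.59 CPM in UVB embryos, against 0.806, 1.11 and 1.74 CPM in mock embryos. UVB and mock libraries did not overlap, and replicate 1 of Meevs UVB was the low one of its group. The log2 fold change was 4.18 ± 0.36 in Meevs (edgeR adjusted p = 1.3e-09) and 2.49 ± 0.33 in WT embryos (edgeR adjusted p = 1.65e-05).

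he1.1 and he1.2 were called higher after UVB in Meevs embryos. he1.1 had 108, 206 and 194 CPM in Meevs UVB embryos, against 111, 22.03 and 105 CPM in Meevs mock embryos (1.104 ± 0.34, edgeR adjusted p = 0.0221). he1.2 had 51.4, 84.1 and 96.4 CPM in Meevs UVB embryos, against 42.7, 6.72 and 45.2 CPM in Meevs mock embryos (1.32 ± 0.39, edgeR adjusted p = 0.0146). The libraries of he1.1 overlapped and those of he1.2 did not. Without replicate 2 of Meevs mock, the library low for both genes, he1.1 was at 0.65 (edgeR adjusted p = 0.0795) and he1.2 at 0.82 (edgeR adjusted p = 0.0458). The call of he1.1 was also lost without replicate 2 (0.91) or replicate 3 (0.95) of Meevs UVB, and that of he1.2 without replicate 3 (1.09). Both were lost without the 4 libraries that stood apart (edgeR adjusted p = 0.0734 and 0.0621) and when only the groups compared entered the fit (edgeR adjusted p = 0.0947 and 0.0696), and that of he1.1 with DESeq2 (adjusted p = 0.0518). In WT embryos he1.1 differed by 0.29 ± 0.34 (edgeR adjusted p = 0.797) and he1.2 by 0.68 ± 0.37 (edgeR adjusted p = 0.444), although the WT UVB libraries of he1.2, at 57.5 to 79.4 CPM, lay above the mock libraries, at 21.4 to 56.8 CPM.

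klf17 was not called for UVB at 24 h. It had 6.90, 6.88 and 8.37 CPM in Meevs UVB embryos, against 7.89, 7.87 and 8.82 CPM in Meevs mock embryos, and 7.81, 9.76 and 9.85 CPM in WT UVB embryos, against 8.36, 8.26 and 9.06 CPM in WT mock embryos. Groups overlapped, and the 95% interval of its log2 fold change ran from -0.42 to 0.15 in Meevs and from -0.17 to 0.36 in WT. ctslb ENSDARG00000074306 was not called either, with an interval from -0.33 to 1.65 in Meevs and from -0.71 to 1.37 in WT. ENSDARG00000087651 and ENSDARG00000095072 held 0 to 21 counts per library at 48 hpf and were not called.

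**Figure D3:**
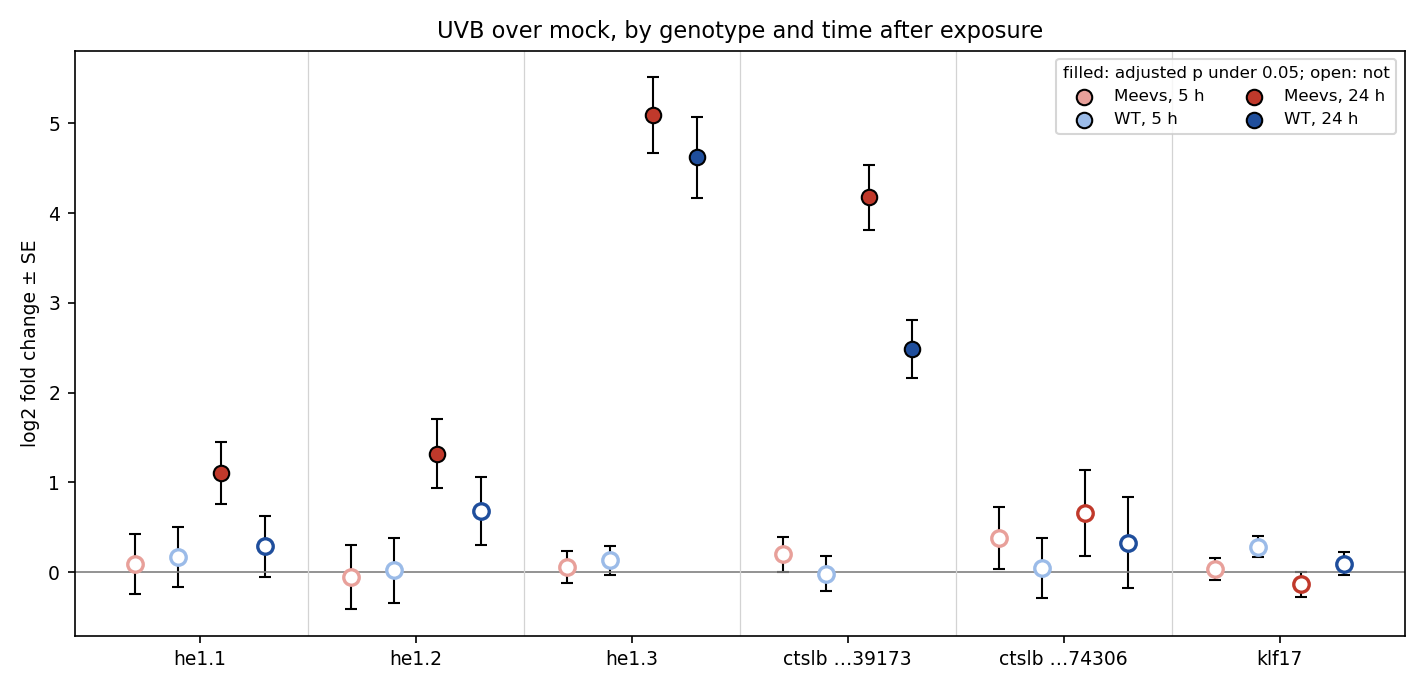
Log2 fold change ± SE of UVB over mock for 6 members in Meevs and WT embryos at 5 h and 24 h after exposure, from the edgeR fit of 24 libraries, with filled points for an adjusted p under 0.05; for he1.3 at 24 h the SE shown is below the counting error. At 5 h the points of all 6 members are open, at 24 h he1.3 and ctslb ENSDARG00000039173 are filled in both genotypes and he1.1 and he1.2 in Meevs, and klf17 is open throughout.

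The UVB effect at 24 h was compared with that at 5 h within each genotype. In Meevs embryos 4 of 8 identifiers had a larger effect at 24 h, against 15.1% of all genes called higher, and in WT embryos 2 of 8, against 3.26%. The difference for he1.3 was 5.04 ± 0.48 in Meevs (edgeR adjusted p = 1.18e-08) and 4.49 ± 0.50 in WT (edgeR adjusted p = 2.61e-06), beside a counting error of 0.49 in Meevs and 0.52 in WT. For ctslb ENSDARG00000039173 it was 3.98 ± 0.42 in Meevs (edgeR adjusted p = 7.64e-08) and 2.50 ± 0.38 in WT (edgeR adjusted p = 0.000153). The other calls in Meevs were he1.2, at 1.37 ± 0.53 (edgeR adjusted p = 0.0498), and ctslb ENSDARG00000095072, at 4.83 ± 1.82 (edgeR adjusted p = 0.0468). Both are close to the threshold, and the call of he1.2 was lost without 9 of the 12 libraries left out in turn and that of ENSDARG00000095072 without 8 of 12. At 2.74, the value of ENSDARG00000095072 was lowest without replicate 2 of Meevs mock at 5 h.

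Whether the genotypes differed in the UVB effect was tested as an interaction. At 5 h, 0 of 8 identifiers were called by edgeR, against 5.12% of all genes, with 1 at an unadjusted p under 0.05 and 0 called by DESeq2. That identifier, ctslb ENSDARG00000087651, was called without replicate 1 (3.86) or replicate 2 (3.79) of WT mock, which leaves the library of 176 counts a larger part of its group. At 24 h, 0 of 8 were called, against 2.4%, with 1 at an unadjusted p under 0.05 and 1 called by DESeq2. That member was ctslb ENSDARG00000039173, whose UVB effect at 24 h was larger in Meevs than in WT by 1.69 ± 0.56 (edgeR adjusted p = 0.128). DESeq2 called it (1.68, adjusted p = 0.0198), as did edgeR without replicate 1 of Meevs UVB (1.99, adjusted p = 0.0181). For he1.3 the difference was 0.47 ± 1.02, with a 95% interval from -1.62 to 2.57. That interval rests on the SE, with 1 to 7 counts per mock library at 48 hpf, and is rough.

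Some other measures moved with UVB at 48 hpf, while others overlapped between UVB and mock libraries. Their part in the higher he1.3 and ctslb ENSDARG00000039173 levels was not tested. On the first principal component, on which libraries at 48 hpf had the higher scores, Meevs UVB libraries at 24 h lay between 50.9 and 61.5, against 72.8 to 75.9 in Meevs mock libraries, and WT UVB libraries between 65.5 and 84.8, against 83.6 to 94.1 in WT mock libraries. The summed level of 7 macrophage markers was 106 to 110 CPM in Meevs UVB against 76.6 to 81.7 CPM in Meevs mock libraries, and 90.6 to 108 CPM in WT UVB against 79.3 to 85.2 CPM in WT mock libraries. Most of that sum was lgmn, a lysosomal protease, at 92 ± 1.68 CPM in Meevs UVB and 64.3 ± 3.21 CPM in Meevs mock embryos. lgmn and marco were the 2 of 7 called higher in Meevs, where 11.5% of all genes were called higher and 8.84% lower at 24 h, and 0 of 7 were called in WT, where 1.74% were called higher and 0.506% lower. The macrophage markers mpeg1.1, mfap4 and csf1ra were not called in Meevs, at log2 fold changes of -0.30 ± 0.27, -0.23 ± 0.22 and 0.01 ± 0.20. The summed level of 14 periderm and basal keratinocyte markers was 18800 to 26300 CPM in Meevs UVB against 28100 to 32600 CPM in Meevs mock libraries, and 19700 to 22700 CPM in WT UVB against 26100 to 27700 CPM in WT mock libraries. The members of that list went both ways, with 5 of 14 called higher and 6 lower in Meevs (all genes, 11.5% and 8.84%) and 3 higher and 3 lower in WT (all genes, 1.74% and 0.506%). Much of the sum was krt4, a keratin of the surface layer, at 13700 ± 2290 CPM in Meevs UVB and 18400 ± 910 CPM in Meevs mock embryos. The summed level of 6 neutrophil marker identifiers was 117 to 188 CPM in Meevs UVB against 114 to 120 CPM in Meevs mock libraries, and 97 to 107 CPM in WT UVB against 74.3 to 81.7 CPM in WT mock libraries. The upper end in Meevs UVB came from 1 of the 2 mmp13a identifiers, ENSDARG00000114451, which had 20.9 to 83.5 CPM in Meevs UVB libraries and averaged 2.94 ± 0.68 CPM in Meevs mock embryos. In Meevs 2 of 6 were called higher, both mmp13a, and 1 lower, lyz, against the same 11.5% and 8.84% of all genes. In WT 2 were called higher, mpx and mmp13a ENSDARG00000012395, against 1.74%. npsn and mpx were not called in Meevs, at -0.02 ± 0.12 and 0.11 ± 0.12. Sums of 9 notochord and 8 primitive erythrocyte markers overlapped between UVB and mock libraries in Meevs, as did those of the erythrocyte markers in WT, where the notochord sum was 406 to 436 CPM in UVB against 372 to 387 CPM in mock libraries. Single markers were called, with 3 of 9 notochord markers higher and 2 lower in Meevs (all genes, 11.5% and 8.84%). In WT 2 of the 9 were called higher and 0 lower (all genes, 1.74% and 0.506%). Erythrocyte markers called higher were 2 of 8 in Meevs and 0 in WT, with 0 lower in both. No marker in these lists was at 0 in all libraries of a group.

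The he1 genes did not fall in step, and their proportions within a library show this without reference to library size. Counts of he1.2 were 46.0 ± 4.6% of those of he1.1 in Meevs UVB and 37.3 ± 6.4% in Meevs mock embryos at 48 hpf, against 61.1 ± 4.7% and 67.1 ± 7.9% at 29 hpf. In WT they were 46.8 ± 5.6% in UVB and 35.0 ± 3.3% in mock embryos at 48 hpf, against 62.2 ± 7.2% and 68.9 ± 3.0% at 29 hpf. The times did not overlap in any arm (exact permutation test, two-sided p = 0.1, the smallest that 3 libraries against 3 allow). At 48 hpf the share ran from 42.9 to 53.2% in WT UVB libraries, against 31.2 to 37.2% in WT mock libraries (exact p = 0.1). In Meevs it ran from 40.8 to 49.7% in UVB libraries, against 30.5 to 43.2% in mock libraries, which overlapped (exact p = 0.2).

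Counts of he1.3 were 1.92 to 2.75% of those of he1.1 in Meevs UVB libraries at 48 hpf, against 0.0336 to 0.812% in Meevs mock libraries. In WT they were 1.21 to 1.57% in UVB libraries, against 0.0241 to 0.117% in mock libraries. The groups did not overlap in either genotype (exact p = 0.1 in both). In Meevs UVB embryos the share was also above that at 29 hpf, at 2.21 ± 0.47% against 1.55 ± 0.24%. In WT UVB embryos it was below, at 1.45 ± 0.21% against 3.46 ± 0.21% (exact p = 0.1 in both). The share at 29 hpf was already lower in Meevs than in WT without UVB, at 1.58 ± 0.07% against 3.52 ± 0.50% in mock embryos. Whether the genotypes differed in the change of the share was not tested.

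**Figure D4:**
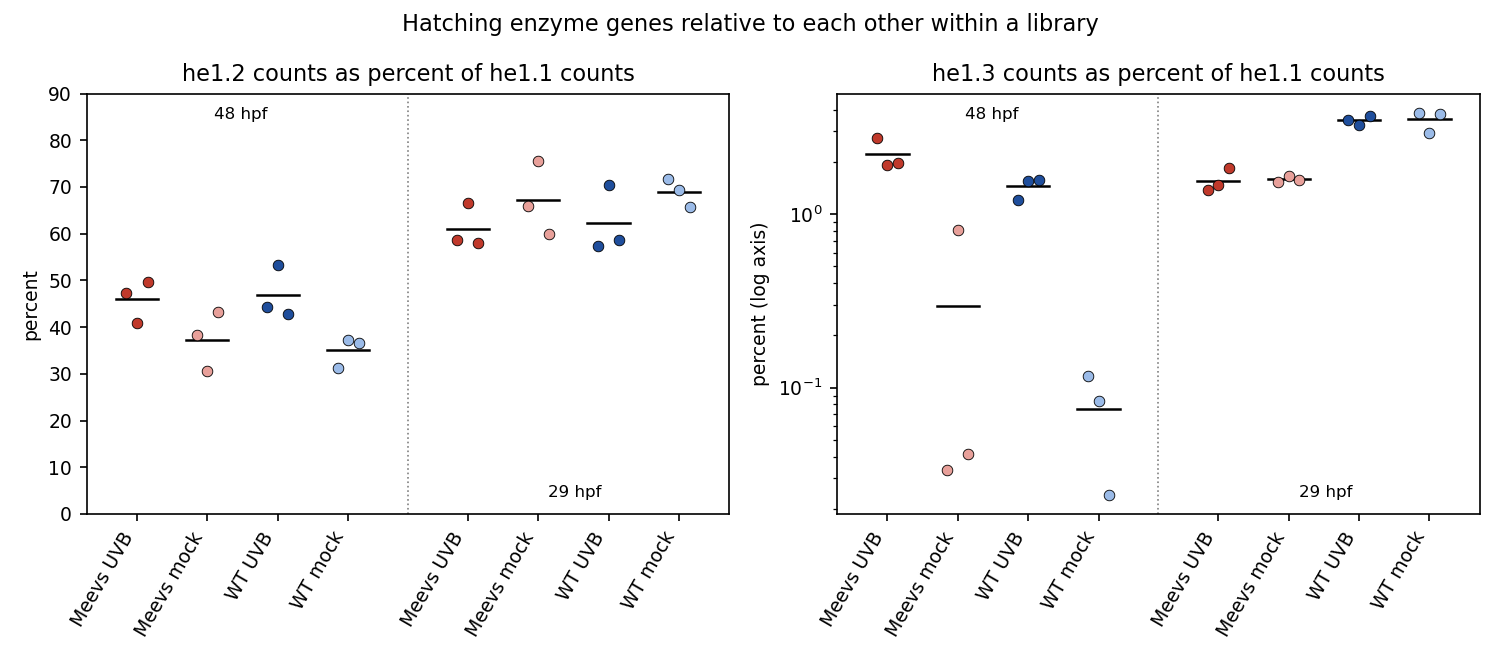
Counts of he1.2 (left, linear axis from 0) and he1.3 (right, log axis) as a percentage of the he1.1 counts of the same library, with 1 point per library, a line at each group's mean, and 48 hpf left of the dotted line. The he1.2 share is lower at 48 hpf in all 4 arms, and the he1.3 share at 48 hpf is 1.21 to 2.75% in UVB libraries against 0.0241 to 0.812% in mock libraries.

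At 48 hpf he1.1, he1.2 and ctslb ENSDARG00000074306 varied together between libraries of Meevs UVB, Meevs mock and WT mock embryos. The widest deviation was that of replicate 2 of Meevs mock, at 20.4%, 15.3% and 11.6% of the mean of the other replicates. In WT UVB embryos replicate 3 was the lowest for he1.1 and he1.2, at 90.6% and 79.6%, and the highest for ENSDARG00000074306, at 150%. Correlations without replicate 2 of Meevs mock were not computed. As a description over 12 libraries that share the scaling, the deviations of log2 CPM from the group means correlated at r = 0.99 between he1.1 and he1.2, 0.95 between he1.1 and ENSDARG00000074306 and 0.93 between he1.2 and ENSDARG00000074306. The part of reads that match both he1.1 and he1.2 in the first value was not tested. For he1.3, with 1 to 7 counts per mock library, r against he1.1 was -0.57, and replicate 2 of Meevs mock held 443% of the mean of the other replicates. For ctslb ENSDARG00000039173 r against he1.1 was 0.59.

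Between the genotypes without UVB, he1.3 was lower in Meevs at 29 hpf. It had 10.7, 9.56 and 10.5 CPM in Meevs mock embryos, against 22.3, 16.1 and 18.9 CPM in WT mock embryos, with no overlap (-0.90 ± 0.17, edgeR adjusted p = 0.000123). The UVB libraries at 29 hpf had 10.4, 8.11 and 13.8 CPM in Meevs, against 25.6, 21.2 and 16.01 CPM in WT, also with no overlap. he1.3 was the 1 of 8 identifiers called lower, where 23.2% of all genes were, and ctslb ENSDARG00000095072 the 1 called higher (1.55 ± 0.56, edgeR adjusted p = 0.0237), where 24.5% were. Without the Meevs mock library of 104 counts the value of ENSDARG00000095072 was -0.548 (edgeR adjusted p = 0.323). The call was also lost without replicate 1 (1.40) or replicate 3 (1.503) of WT mock. At 48 hpf 0 of 8 identifiers were called by edgeR between Meevs mock and WT mock embryos, against 52.7% of all genes. There 0 were at an unadjusted p under 0.05 and 0 were called by DESeq2. Only klf17 had a narrow interval of the log2 fold change, from -0.34 to 0.21. It ran from -1.28 to 0.13 for he1.1, from -1.23 to 0.35 for he1.2 and from -1.55 to 2.2 for he1.3. For ctslb ENSDARG00000039173 it ran from -1.85 to 0.25 and for ENSDARG00000074306 from -0.63 to 1.51. Those of the low-count ctslb identifiers were wider still. Sizeable differences between the genotypes were therefore not excluded for members other than klf17. Without replicate 2 of Meevs mock, ctslb ENSDARG00000074306 was called higher in Meevs (1.07, edgeR adjusted p = 0.0439). The difference between genotypes in the change from stage to stage in mock embryos was called for 0 of 8, against 0.00895% of all genes, with 0 at an unadjusted p under 0.05 and 0 called by DESeq2.

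The order of the levels followed the time first. For all 8 identifiers the 4 groups at 29 hpf had the highest means. Among those groups the ranges of neighbours in the order overlapped for he1.1, he1.2, ctslb ENSDARG00000039173 and ENSDARG00000074306. For he1.3 the order was WT UVB (20.9 ± 4.8 CPM), WT mock (19.1 ± 3.1), Meevs UVB (10.8 ± 2.9) and Meevs mock (10.3 ± 0.6) at 29 hpf, then Meevs UVB (3.59 ± 0.53), WT UVB (2.07 ± 0.28), Meevs mock (0.0866 ± 0.0800) and WT mock (0.0798 ± 0.0477) at 48 hpf. At 29 hpf the ranges of UVB and mock libraries overlapped within each genotype, while WT and Meevs ranges did not. At 48 hpf the ranges of both mock groups overlapped and those of the other neighbours did not.

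Other genes of the gland and of the families of its enzymes were read from fixed lists. Of 10 genes for gland specification and secretion, 3 were called higher and 2 lower in Meevs at 24 h, where 11.5% and 8.84% of all genes were called. In WT at 24 h 0 of 10 were called by edgeR, where only 1.74% of all genes were called higher and 0.506% lower. cd63, a tetraspanin of secretory vesicles, was at 187 ± 13 CPM in Meevs UVB and 108 ± 1 CPM in Meevs mock embryos (0.80 ± 0.07, edgeR adjusted p = 6.66e-10), and its UVB effect was larger in Meevs than in WT (0.56 ± 0.09, edgeR adjusted p = 0.000541). agr2, a protein disulphide isomerase of secretory cells, was at 45.8 ± 3.9 CPM in Meevs UVB and 74.5 ± 4.3 CPM in Meevs mock embryos (-0.70 ± 0.09, edgeR adjusted p = 1.5e-06). It was already lower at 5 h, at 32.2 CPM in Meevs UVB and 64.9 CPM in Meevs mock embryos. In WT at 5 h it was at 18.2 CPM in UVB and 31.6 CPM in mock embryos. At 5 h 2 of the 10 were called lower in Meevs and 1 in WT, against 15.3% and 6.06% of all genes. cd63 and agr2 are both expressed beyond the gland. With time, 4 of the 10 were called higher and 4 lower at 48 hpf in WT mock embryos, near the 30.2% and 33.5% of all genes.

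Of 6 tested astacin genes outside the members, hce2l2, a high choriolytic enzyme 2-like gene, was lower after UVB in Meevs. There 1 of the 6 was called higher and 1 lower, near the 11.5% and 8.84% of all genes. Its level at 24 h was 0.134 ± 0.053 CPM in Meevs UVB and 2.01 ± 0.28 CPM in Meevs mock embryos (-3.87 ± 0.42, edgeR adjusted p = 8.91e-08). In WT it was at 0.654 ± 0.331 CPM in UVB and 1.39 ± 0.19 CPM in mock embryos (-1.096 ± 0.30, edgeR adjusted p = 0.0544). The UVB effects of both genotypes differed by -2.77 ± 0.56 (Meevs minus WT, edgeR adjusted p = 0.00428). Meevs UVB libraries at 24 h had only 0.0816 to 0.188 CPM of hce2l2. At so low a level the SE is rough, and the counting error was not computed for this gene. In WT at 24 h 0 of 6 were called by edgeR, where only 1.74% of all genes were called higher and 0.506% lower. Unlike the members, hce2l2 was higher at 48 hpf than at 29 hpf in mock embryos of both genotypes (1.14 ± 0.31 in Meevs and 1.42 ± 0.33 in WT).

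Of 12 tested papain family cathepsins outside the members, 8 were called higher after UVB in Meevs at 24 h and 4 in WT, against 11.5% and 1.74% of all genes. At 5 h 2 were called higher in Meevs and 3 in WT, against 19.1% and 6.67%. ctsk, a cathepsin of bone-resorbing cells, had a level at 24 h of 70.3 ± 2.7 CPM in Meevs UVB and 41.4 ± 1.3 CPM in Meevs mock embryos (0.76 ± 0.06, edgeR adjusted p = 8.5e-10), and at 37.9 ± 2.0 CPM in WT UVB and 28.5 ± 1.2 CPM in WT mock embryos (0.41 ± 0.07, edgeR adjusted p = 0.000192). ctsh, a lysosomal cathepsin, rose by 0.89 ± 0.12 in Meevs and 0.50 ± 0.12 in WT (edgeR adjusted p = 2.29e-06 and 0.0254). ctsh also fell with time in mock embryos, by -2.73 ± 0.11 in Meevs and -3.04 ± 0.12 in WT, while ctsk changed by 0.14 ± 0.07 in Meevs and 0.16 ± 0.07 in WT. Of 19 tested Kruppel-like factor genes outside klf17, 5 were called higher and 3 lower in Meevs at 24 h, beside 11.5% and 8.84% of all genes, and 1 higher and 1 lower in WT, beside 1.74% and 0.506%.

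By Pearson's r of log2 CPM over 24 libraries, against 15473 genes, the genes with the pattern most like that of ctslb ENSDARG00000039173 were tgm1l4 (r = 0.983), snx1a (0.973) and krt92 (0.970). Those most like he1.3 were tgm1l4 (0.965), arhgef39 (0.956) and manba (0.947). tgm1l4 had at 24 h a level of 29.3 ± 1.24 CPM in Meevs UVB and 11.4 ± 0.99 CPM in Meevs mock embryos, and of 32.1 ± 5.4 CPM in WT UVB and 13.7 ± 0.9 CPM in WT mock embryos. For he1.1 the most alike were foxa (0.941), uts2r3 (0.940) and atic (0.940), and for he1.2 uts2r3 (0.950), foxp1a (0.950) and ppfibp1b (0.948). For ctslb ENSDARG00000074306 they were uts2r3 (0.945), ppfibp1b (0.943) and adkb (0.942), and for klf17 hmbsb (0.988), prps1a (0.977) and chpt1 (0.977). Over all 24 libraries the points share the separation of the times. Within the 12 libraries at 48 hpf r was lower: 0.87 to 0.949 for the genes named beside he1.3 and ctslb ENSDARG00000039173, 0.651 to 0.792 for those beside he1.1, he1.2 and ctslb ENSDARG00000074306, and 0.652, 0.634 and 0.303 for hmbsb, prps1a and chpt1 beside klf17. Those 12 libraries still share the separation of UVB from mock. Between he1.3 and ctslb ENSDARG00000039173 themselves, r was 0.94 over the 12 libraries and -0.141 for deviations from the group means.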

How the data were processed

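Whole embryo RNA of 24 zebrafish libraries was analysed from the deposited table of raw read counts per gene; these counts carry no normalisation. The submitters' processing notes name GRCz11 as the build and, as tools, DESeq2 1.36.0, featureCounts 1.6.3, STAR 2.7.9a and cutadapt 1.16. Settings were not given in the sources used here. Libraries were polyA selected and directional, per the labels' protocols.

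Groups were taken from the labels. filterByExpr removed low-count genes, TMM scaled the rest, and edgeR 4.0.16 (R 4.3.3) fitted a mean for each of 8 groups across the 24 libraries. Each of 15 contrasts had a quasi-likelihood F-test, with Benjamini-Hochberg adjustment over 22340 genes. The SE is the size of the log2 fold change divided by the square root of F. It is not estimated by the fit itself and is a rough measure at low counts. For he1.3 it was 0.42 in Meevs and 0.45 in WT for UVB at 24 h, yet 1.02 for their difference. The 95% intervals of log2 fold changes rest on it. Shares within a library were compared with exact permutation tests. Intervals of pooled count ratios are 95% and cover counting error only. DESeq2 1.42.0 was an alternative.

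The members and lists were chosen with earlier results of these data known. All members are named. Of each list, genes called for UVB could be named, with values for up to 4 with the smallest adjusted p. The 3 genes with the highest r were named per member with a mean of at least 1 CPM.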

Additional observations from a re-analysis of the deposited data

Results flagged for a closer look

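Of the effects compared between times, 6 differed, all of them larger at 24 h. In Meevs embryos these were 4 of 8 identifiers, against 15.1% of all genes called higher, and in WT embryos 2 of 8, against 3.26%. The difference is the UVB effect on the log2 scale at 24 h minus that at 5 h. It was 5.04 for he1.3, 3.98 for ctslb ENSDARG00000039173, 4.83 for ctslb ENSDARG00000095072 and 1.37 for he1.2 in Meevs embryos, and 4.49 for he1.3 and 2.50 for ctslb ENSDARG00000039173 in WT embryos. Each passed the edgeR interaction test at an adjusted p under 0.05, but he1.2 (0.0498) and ctslb ENSDARG00000095072 (0.0468) only narrowly. The call of he1.2 was lost without 9 of the 12 libraries left out in turn, and that of ctslb ENSDARG00000095072 without 8 of 12. Leaving out 1 library at a time, the differences for he1.3 and ctslb ENSDARG00000039173 remained called in both genotypes, between 4.71 and 6.28 and between 3.74 and 4.28 in Meevs, and between 4.16 and 4.92 and between 2.26 and 2.84 in WT. That for he1.3 in Meevs was 6.28 without replicate 2 of Meevs mock at 24 h. That for ctslb ENSDARG00000095072 ran from 2.74, without replicate 2 of Meevs mock at 5 h, to 6.77, without replicate 1 of Meevs mock at 24 h, and that for he1.2 from 0.87 to 1.74.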

How the results depend on the processing

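Each result was recomputed under 6 settings and without each library of its own groups in turn, among 24 libraries in all. A fit that gave an identifier no adjusted p was not counted for it. Of 45 member and contrast pairs called, 37 were called in the same direction under every one, and 10 further pairs were called under some setting. Of the 65 pairs called under none, 27 changed sign somewhere. The count called for UVB at 5 h was 0 in place of 1 in WT with the replicate block, DESeq2 and only the groups compared, and 0 in place of 1 in Meevs with the replicate block and only the groups compared. For UVB at 24 h in Meevs it was 2 in place of 4, and for the difference between times in Meevs 2 in place of 4, with only the groups compared and without the 4 libraries that stood apart. The genotype difference of UVB effects at 24 h gave 1 in place of 0 with DESeq2. The mock genotype difference gave 1 in place of 2 at 5 h with the replicate block, and 1 in place of 0 at 24 h with only the groups compared, where ctslb ENSDARG00000039173 was lower in Meevs (-0.80, edgeR adjusted p = 0.0463). Causes were not tested.

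Without 1 library the counts ran from 0 to 1 for UVB at 5 h in each genotype, the genotype difference of UVB effects at 5 h and at 24 h, and the mock genotype difference at 24 h. They ran from 2 to 4 for UVB at 24 h in Meevs, from 2 to 5 for the difference between times in Meevs, from 1 to 3 for the mock genotype difference at 5 h, and from 7 to 8 for the change with time in Meevs, mock or UVB. Those for the change with time in WT (8 mock, 6 UVB) and for UVB at 24 h and the difference between times in WT (2 each) did not move. ctslb ENSDARG00000095072 ran from -2.36 to 0.255 for UVB at 5 h in Meevs and from -0.548 to 2.02 for the mock genotype difference, both turned without replicate 2 of Meevs mock at 5 h.

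Over all genes, the calls for UVB in WT at 24 h were 501, and 1189 without the 4 libraries that stood apart. They were 274 without replicate 1 and 329 without replicate 3 of WT mock, and 294 without replicate 2 and 313 without replicate 3 of WT UVB. At 5 h in WT they were 2842, 1808 with only the groups compared, 4274 without those 4, 1373 without replicate 1 of WT UVB and 1753 without replicate 3 of WT mock. The genotype difference in the change with time gave 2 calls, 4 with only the groups compared, 36 with DESeq2, 55 without those 4 and up to 13 without 1 library (replicate 3 of Meevs mock at 5 h). Over all arms, replicate numbers were not seen to pair the libraries, with 1 of 12 same-numbered pairs correlated above 0.1 (range -0.083 to 0.107). Of 12 UVB libraries 5 correlated best with the mock library of their own number. These included every UVB library of WT at 24 h (0.107, 0.057 and 0.069, against -0.069 to 0.004 for other numbers). In no other arm did this hold for every library, and pairing within WT at 24 h was not settled. Depth limits he1.3, with 1 to 7 counts per mock library at 48 hpf, ctslb ENSDARG00000095072, with 0 to 2, and ctslb ENSDARG00000087651, with 0 to 21. For 7 of the 120 pairs, all called and 6 of them of he1.3, the SE derived from F was below the counting error.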

Other observations

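ctsll, annotated as cathepsin L, like, on chromosome 5 and chosen after its values were seen, also fell with time, by between -3.58 ± 0.18 in Meevs UVB and -4.74 ± 0.21 in WT UVB embryos. At 24 h it was at 8.65 ± 2.66 CPM in Meevs UVB and 3.08 ± 1.2 CPM in Meevs mock embryos (1.53 ± 0.23, edgeR adjusted p = 1.91e-05), and at 2.56 ± 1.02 CPM in WT UVB and 2.44 ± 0.65 CPM in WT mock embryos (0.09 ± 0.27, edgeR adjusted p = 0.937). The difference between the genotypes' UVB effects was called (1.44 ± 0.36, edgeR adjusted p = 0.0245). aox5, in whose span the he1 genes lie, differed with UVB at 24 h by 0.07 ± 0.08 in Meevs and -0.01 ± 0.08 in WT (edgeR adjusted p = 0.625 and 0.978), and was lower at 5 h in both genotypes (-0.69 ± 0.08 in Meevs and -0.50 ± 0.08 in WT).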
